A study of Rattus norvegicus with 30 samples.

Results

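The cytochrome P450 genes of families 1 to 4 encode heme enzymes of the hepatocyte that oxidise drugs, toxicants, steroids and fatty acids. The genes described here are those whose single annotated symbol begins with Cyp1, Cyp2, Cyp3 or Cyp4 followed by a letter, without the Cyp4a genes, and the probe set with the highest mean over the 30 arrays stands for a gene. By this rule there were 39 genes among the 14217 genes that have a probe set with their symbol alone, with 3 genes in family 1, 25 in family 2, 4 in family 3 and 7 in family 4. The rats were Sprague-Dawley females, 10 weeks old, with no genetic change in the labels, and RNA from the left lobe of each liver was hybridised to an Affymetrix rat genome array of its own. The 10 control rats were not handled and are labelled 24 h. The 10 rats of the 1-day group (24 h) and the 10 rats of the 4-day group (96 h) went through the handling of a dosing study with no drug. This handling took in a daily gavage with water, time in a Broome restrainer, weighing and the drawing of tail vein blood. No unhandled rats carry the 96 h label, so length of handling and day of sampling cannot be told apart in the comparison of 4 days with control. The question for these genes is how far the handling that goes with any dosing study moves the enzymes that a toxicologist would read as a sign of exposure.

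P450 genes are switched on by receptors that sense foreign or endogenous compounds. The aryl hydrocarbon receptor (AhR) acts on Cyp1a1, Cyp1a2 and Cyp1b1. The nuclear receptors CAR and PXR act on genes of the Cyp2b, Cyp2c and Cyp3a subfamilies, not on every member of them. In the rat several members are set by sex through the pulses of growth hormone, with Cyp2c12 the classic female form and Cyp2c11 the classic male form. Cyp2j and Cyp4f enzymes oxidise arachidonic acid and its products. All of these enzymes draw electrons from P450 oxidoreductase (Por) and need heme, whose synthesis starts with Alas1.

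The deposited intensities are linear and have a mean of 1 on every array. The median of all values was 0.122, and 10 of the 39 genes had a mean below it, so that folds of these dim genes rest on weak signals. The lowest value in the table was 0.0134, and the highest value of an array was 66.1 to 83.2. The brightest members, among them Cyp2c7 and Cyp2e1, lay near that upper end, and whether saturation limits their values was not tested. Intensities of different probe sets are not compared as levels, since each probe set binds with its own strength. Probe sets that carry several symbols were not used, which left Cyp2b1 and Cyp2b2, the classic genes of the CAR response, without a value. The probe set of Cyp2c13 may also bind transcripts of related genes by its design code. The hepatocyte identity of the tissue was plain in all groups. Albumin (Alb) had 58.9 to 72.5 without handling, 56.3 to 73.8 in the 1-day group and 59.0 to 75.9 in the 4-day group, and the summed intensity of 9 hepatocyte markers was 464.0 to 523.8, 477.3 to 522.9 and 478.8 to 532.8. Of markers of other cell types, 0 of 7 Kupffer cell, 6 endothelial, 7 stellate cell, 4 neutrophil, 4 erythroid and 5 bile duct genes were called in either comparison with control, and 1 of 8 lymphocyte genes, Nkg7 of cytotoxic lymphocytes, fell after 4 days (log2 change -0.42, adjusted p = 0.0902 in limma). With 0.0902% of all probe sets called after 1 day and 0.657% after 4 days, counts of 0 in such short lists say little about these cells. Of the 7 Kupffer cell genes, 4 had an unadjusted p under 0.05 after 4 days (11.3% of all probe sets did), with a median log2 change of -0.24, and their sum spanned 22.62 to 37.23 without handling, 23.83 to 38.93 in the 1-day group and 19.95 to 28.05 in the 4-day group. The part of these cells in the P450 values was not tested. In bulk tissue, fewer cells of a type and less RNA per cell cannot be told apart.

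Handling for 1 day or 4 days moved no P450 gene past the test. Of 39 genes, 0 were called at a Benjamini-Hochberg adjusted p under 0.1 in limma after 1 day, where 28 of all 31042 probe sets (0.0902%) were called, and 0 were called after 4 days, where 204 (0.657%) were. With so low a share over all probe sets, a count of 0 among 39 genes does not set them apart. The smallest adjusted p in limma was 0.27 for Cyp2b21 after 1 day and 0.166 for Cyp1a2 after 4 days. At an unadjusted p under 0.05, 6 genes passed after 1 day (15.4%, against 9.33% of all probe sets) and 4 after 4 days (10.3%, against 11.3%). The t-test of the study's methods, run on the same log2 values and adjusted in the same way, also called 0 P450 genes in either comparison. After 1 day 26 genes were higher and 13 lower than in control rats, with a median log2 change of 0.05 against -0.003 over all probe sets, and after 4 days 19 were higher and 20 lower, with a median of -0.004 against 0.002. Both comparisons use the same 10 control rats.

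Within this fit, the intervals say how large a change could have gone unseen. They do not allow for saturation of the bright genes, which was not tested, or for differences in RNA quality. After 1 day the 95% interval of the log2 change lay within 1 unit on either side of 0, that is within a 2-fold change, for 31 of 39 genes, and after 4 days for 36. It lay within 0.5 for 19 and 21 genes, and within 0.2 for 6 and 8. Cyp2c12, Cyp2c23, Cyp2c6v1, Cyp2c7, Cyp2d2 and Cyp2e1, all bright genes, were in the narrowest class in both comparisons. A 2-fold change was not shut out by the interval after 1 day for Cyp2b21, Cyp2c13, Cyp2c22, Cyp3a18, Cyp3a2, Cyp3a23-3a1, Cyp3a9 and Cyp4f17, nor after 4 days for Cyp1a1, Cyp2c13 and Cyp4f17. No estimate of this fit reached 2-fold in either direction. The estimates past 1.5-fold were those of Cyp4f17, Cyp2b21 and Cyp3a23-3a1 after 1 day and of Cyp4f17 and Cyp2c13 after 4 days.

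**Figure D1:**
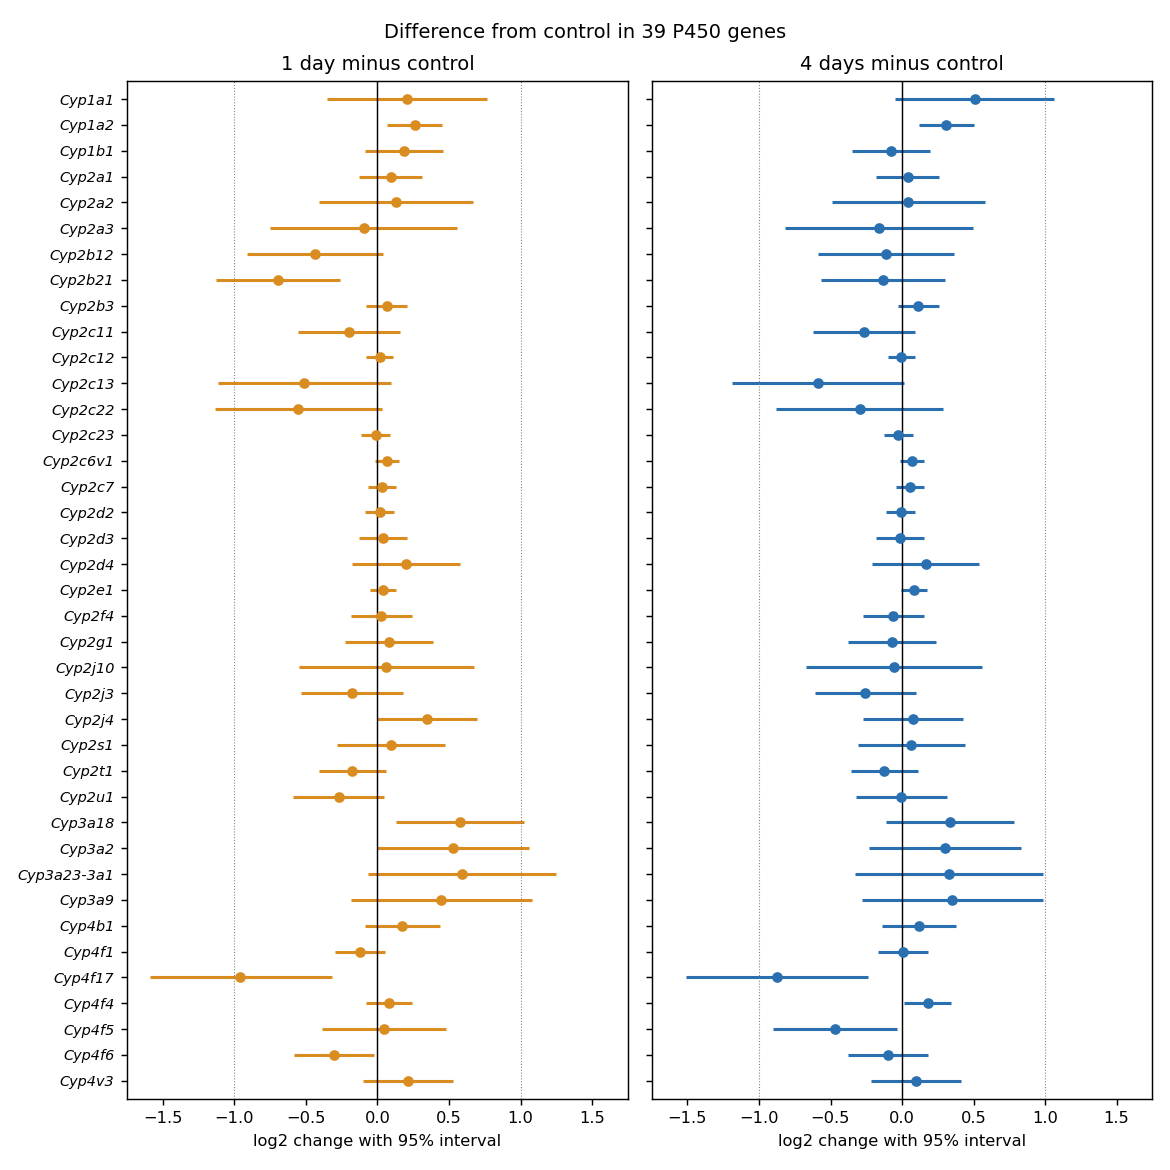
Log2 change in intensity after 1 day (left) and 4 days of handling (right) against control for each of the 39 P450 genes, with 95% intervals from limma (10 rats per group) and dotted lines at a 2-fold change. Of these genes, 0 passed the test in either comparison, and the intervals of Cyp2c12, Cyp2c23, Cyp2c6v1, Cyp2c7, Cyp2d2 and Cyp2e1 stay within 0.2 of 0.

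Among the AhR genes, Cyp1a2 was the P450 gene nearest to a call after 4 days. Cyp1a2 oxidises caffeine and aromatic amines and is made in hepatocytes around the central vein. Its intensity was 19.0 to 29.6 in control rats (median 23.0), 20.4 to 34.9 after 1 day (28.0) and 23.5 to 33.4 after 4 days (30.2). All groups overlapped, and 9 of 10 rats after 1 day and 10 of 10 after 4 days were above the control median, with 3 and 6 above all control rats. The log2 change was 0.26 ± 0.09 (SE) after 1 day, with an adjusted p of 0.377 in limma, and 0.31 ± 0.09 after 4 days, with an adjusted p of 0.166. After 4 days Cyp1a2 passed the test when the dimmest 40% of probe sets were left out (adjusted p = 0.0881 in limma) and when control rats 1 to 3, which are described below, were left out (log2 change 0.37, adjusted p = 0.095). These 2 fits called 493 and 257 probe sets, against 204 in the reported fit. Of 8 alternative fits of this change, the other 6 gave no call, with adjusted p-values up to 0.28 in limma.

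Cyp1a1, the most inducible gene of the AhR response and nearly silent in unexposed liver, was dim. It had 0.0149 to 0.0508 in control rats (median 0.0227), 0.0158 to 0.0539 after 1 day (0.0267) and 0.0161 to 0.0639 after 4 days (0.0352), close to the lowest values of the table. Its log2 change was 0.21 ± 0.27 (SE) and 0.51 ± 0.27, with adjusted p-values of 0.856 and 0.492 in limma. With a measure of RNA quality as a covariate, the 3′ to 5′ ratio of Gapdh given below, these estimates were -0.16 and 0.071. The other genes of this list are Cyp1b1, which oxidises oestrogens and is mostly made outside hepatocytes, and Cyp2s1. These last 2 genes had log2 changes between 0.095 and 0.19 after 1 day and between -0.078 and 0.065 after 4 days. Over the 4 genes the median log2 change was 0.20 after 1 day and 0.19 after 4 days, against -0.003 and 0.002 over all probe sets. In each comparison 1 of the 4, Cyp1a2, had an unadjusted p under 0.05 in limma, against 9.33% and 11.3% of all probe sets. Cyp1a1 and Cyp1a2 lie next to each other on chromosome 8. The deviations of the 30 rats from their group means gave no relation that passed the test (Pearson's r = -0.31, Spearman's rho = -0.30, permutation p = 0.092 and 0.11, each 0.22 when adjusted over 8 pairs). The correlation was -0.25 without the 2 rats farthest from the median of Cyp1a1 and -0.47 without control rats 1 to 3. Within groups it was -0.43 in control rats 4 to 10, -0.30 after 1 day and -0.69 after 4 days.

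The 4 Cyp3a genes, PXR targets that hydroxylate steroids and many drugs, were all higher on average after handling and all short of the threshold. Cyp3a23-3a1 is the rat gene most used to read PXR activity. Its intensity was 5.60 to 32.4 in control rats (median 14.0), 10.2 to 34.5 after 1 day (21.6) and 5.64 to 30.1 after 4 days (22.0). These ranges covered each other almost wholly, and 8 of 10 rats after 1 day and 7 of 10 after 4 days were above the control median. The log2 change was 0.59 ± 0.32 (SE) after 1 day and 0.33 ± 0.32 after 4 days, with adjusted p-values of 0.592 and 0.748 in limma. Of the control rats, rats 2 and 3 had the highest values at 24.1 and 32.4, and without control rats 1 to 3 the log2 changes were 0.93 and 0.67, with adjusted p-values of 0.366 and 0.451.

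Cyp3a18, a form higher in males, had 0.868 to 2.46 in control rats (median 1.83), 1.21 to 5.39 after 1 day (2.18) and 1.39 to 3.23 after 4 days (1.85). Its log2 change after 1 day, 0.58 ± 0.22 (SE), had an adjusted p of 0.407 in limma, and 4 of 10 rats were above all control rats. Cyp3a9, a form higher in females, had the widest range of these 4 genes, while Cyp3a23-3a1 had the larger SD within groups (0.75 on the log2 scale, against 0.72 for Cyp3a9). It had 5.03 to 12.5 in control rats (median 8.94), 5.03 to 20.9 after 1 day (14.3) and 2.41 to 22.8 after 4 days (14.2), a range of 9.46-fold over the 30 rats. In both handled groups 6 of 10 rats were above all control rats and 1 was below them, and the log2 changes were 0.44 ± 0.31 and 0.35 ± 0.31 (SE), with adjusted p-values of 0.689 and 0.71 in limma. Without control rats 1 to 3 they were smaller, at 0.23 and 0.14, unlike those of Cyp3a23-3a1. Cyp3a2, a male form that is dim in these females, had 0.0430 to 0.190, 0.0833 to 0.247 and 0.0618 to 0.212, with log2 changes of 0.53 and 0.30 (adjusted p = 0.536 and 0.705 in limma), and 0.77 and 0.54 without control rats 1 to 3.

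**Figure D2:**
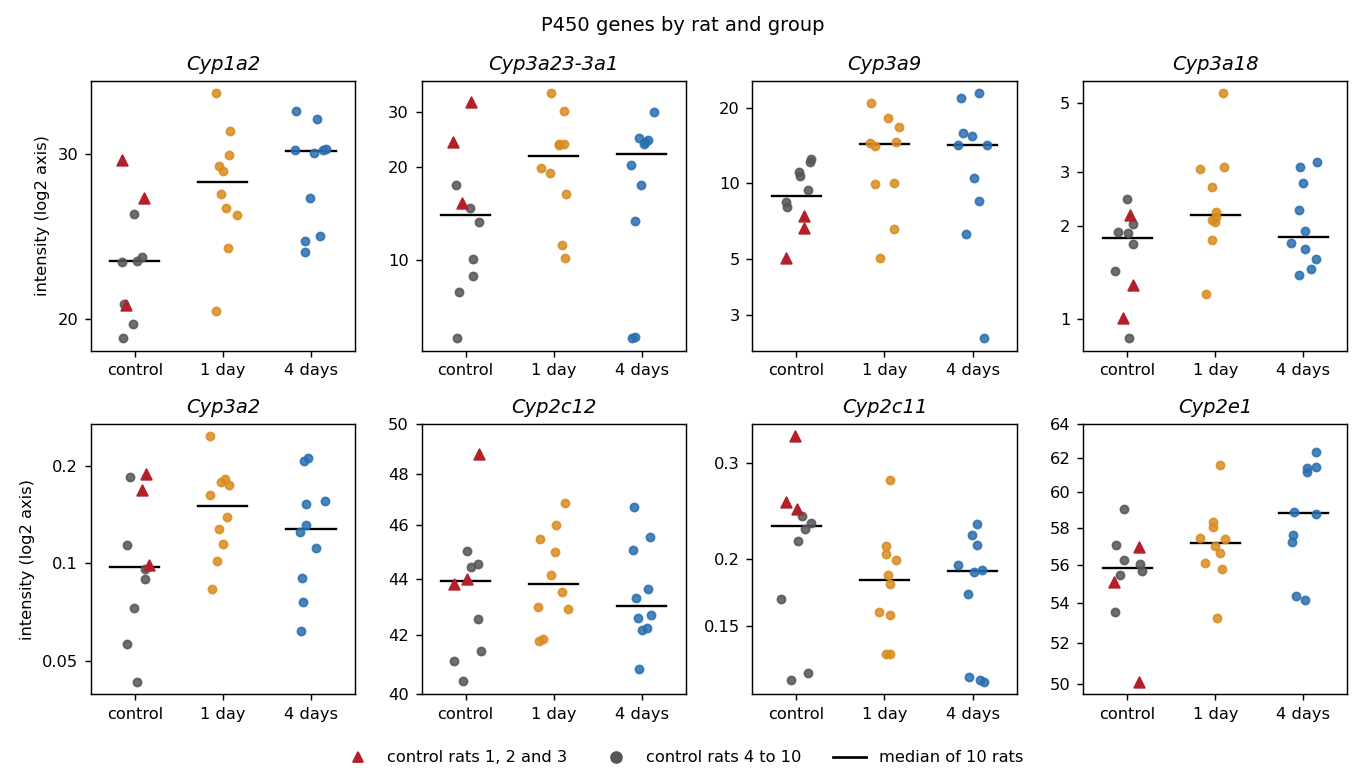
Intensity (log2 axis) of 8 P450 genes in each of 30 rats by group, with control rats 1, 2 and 3 as triangles and the median of 10 rats as a line. Cyp1a2 had medians of 23.0, 28.0 and 30.2 with overlapping groups, the Cyp3a genes spread widely within every group, and Cyp2c12 kept to 40.4 to 48.8 over all rats.

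Across rats, Cyp3a23-3a1 and its chromosome 12 neighbour Cyp3a2 moved together. The deviations of the 30 rats from their group means gave Pearson's r = 0.68 and Spearman's rho = 0.63, with permutation p-values of 5e-05 and 0.0003, or 0.0004 and 0.0024 adjusted over the 8 pairs computed. The correlation was 0.64 without the 2 rats farthest from the median of Cyp3a23-3a1 and 0.62 without control rats 1 to 3. Within groups it was 0.58 in control rats 4 to 10, 0.48 after 1 day and 0.74 after 4 days. The pairs of Cyp3a genes were added after the values had been seen, and these genes are similar in sequence, so that shared binding to the probes may enter the relation. This was not tested. Of the 5 other pairs of Cyp3a genes, the closest was Cyp3a23-3a1 with Cyp3a18 (r = 0.39, adjusted permutation p = 0.14), and the pair of Cyp3a9 with Cyp3a18 had r = -0.02 (adjusted permutation p = 0.9).

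Among the other genes of the Cyp2b and Cyp2c subfamilies, Cyp2b21 had the smallest p of all members after 1 day. Whether Cyp2b21 and Cyp2b3 answer to CAR or PXR was not tested, and Cyp2b1 and Cyp2b2 had no value. Cyp2b21 was dim, with 0.0264 to 0.0494 in control rats (median 0.0367), 0.0147 to 0.0398 after 1 day (0.0237) and 0.0163 to 0.0574 after 4 days (0.0369). After 1 day 6 of 10 rats were below all control rats, and after 4 days the group spanned the control range on both sides. The log2 change was -0.70 ± 0.21 (SE) after 1 day (adjusted p = 0.27 in limma) and -0.13 ± 0.21 after 4 days (0.865). Cyp2b3, the bright Cyp2b gene, had 25.0 to 33.0, 25.3 to 35.9 and 26.7 to 34.8, and Cyp2c6v1 had 48.8 to 53.1, 49.1 to 58.2 and 51.8 to 57.2. Of the 9 measured genes listed as CAR and PXR members, 2 passed an unadjusted p under 0.05 after 1 day and 0 after 4 days. Over all probe sets 9.33% and 11.3% did, and the median log2 changes of the list were 0.07 and 0.11.

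The genes set by sex showed no shift that the test could see. Cyp2c12, a steroid sulphate hydroxylase of the female liver, had 40.4 to 48.8 in control rats (median 43.9), 41.8 to 46.9 after 1 day (43.8) and 40.9 to 46.7 after 4 days (43.0). These groups coincided, and the 95% interval of its log2 change was -0.08 to 0.11 after 1 day and -0.10 to 0.09 after 4 days. Cyp2c11, the testosterone hydroxylase of the male liver, had 0.119 to 0.336 in control rats (median 0.230), 0.133 to 0.280 after 1 day (0.183) and 0.118 to 0.231 after 4 days (0.190). In each handled group 1 of 10 rats was above the control median, and the log2 changes were -0.20 ± 0.17 and -0.27 ± 0.17 (SE), with adjusted p-values of 0.758 and 0.592 in limma. Control rats 1 to 3 held the 3 highest control values of Cyp2c11 at 0.247, 0.254 and 0.336, and without them the log2 changes were -0.02 and -0.09. Over the 9 genes of this list the median log2 change was 0.09 after 1 day and 0.04 after 4 days, and 1 and 0 genes had an unadjusted p under 0.05, against 9.33% and 11.3% of all probe sets.

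Cyp2e1, which oxidises ethanol and acetone and is raised in fasting, had 50.1 to 59.0 in control rats (median 55.9), 53.3 to 61.6 after 1 day (57.2) and 54.2 to 62.4 after 4 days (58.9). Its log2 change was 0.04 ± 0.04 and 0.08 ± 0.04 (SE), with adjusted p-values of 0.812 and 0.505 in limma. Cyp1a2 and Cyp2e1, both enzymes of the pericentral hepatocyte, showed no relation across rats that passed the test (r = 0.02, rho = -0.07, adjusted permutation p = 0.9 and 0.74). The r was -0.11 without the 2 farthest rats and 0.22 without control rats 1 to 3. Within groups r was -0.15 in control rats 4 to 10, 0.43 after 1 day and 0.17 after 4 days. The 3 measured Cyp2d genes, which oxidise many amine drugs, had log2 changes between 0.02 and 0.20 after 1 day and between -0.01 and 0.17 after 4 days.

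Among the genes that oxidise arachidonic acid and other fatty acids, Cyp4f17 had the lowest estimate of all 39 genes in both comparisons. Its log2 change was -0.96 ± 0.31 (SE) after 1 day (adjusted p = 0.307 in limma) and -0.88 ± 0.31 after 4 days (0.245). Without control rats 1 to 3 the estimates were -0.44 and -0.36, with adjusted p-values of 0.696 and 0.672. With the Gapdh ratio as a covariate they were -1.24 and -1.21, past 2-fold, with adjusted p-values of 0.426 and 0.421. Cyp4f5, a dim gene that lies next to Cyp4f17 on chromosome 7, had a log2 change of 0.05 after 1 day and -0.47 ± 0.21 after 4 days (adjusted p = 0.388). Cyp4f4, a fatty acid hydroxylase, had 6.05 to 9.79 in control rats (median 7.76) and 7.15 to 9.84 after 4 days (8.99), a log2 change of 0.18 ± 0.08 with an adjusted p of 0.382 in limma. Of the 10 genes measured in this group, 3 had an unadjusted p under 0.05 in each comparison, against 9.33% and 11.3% of all probe sets. The dim genes Cyp2j10 and Cyp2a3 were named for their spread alone, with 0.0168 to 0.116 and 0.0161 to 0.0922 over all 30 rats. Their log2 changes, between -0.16 and 0.06, were small beside standard errors of 0.30 and 0.32.

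Between 4 days and 1 day of handling, 0 of 39 P450 genes were called, as were 0 of 31042 probe sets (0.0%), in limma. At an unadjusted p under 0.05, 2 members passed (5.13%, against 5.0% of all probe sets), and the smallest adjusted p was 0.964. These were Cyp2b21, higher by 0.56 ± 0.21 (SE) on the log2 scale after 4 days than after 1 day, and Cyp4f5, with a difference of -0.52 ± 0.21 (adjusted p = 0.985). The 95% interval of the log2 difference lay within 1 unit of 0 for all 39 genes and within 0.5 for 22. The methods' t-test called 0 P450 genes here as well.

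In some P450 genes a separation was seen inside the control group. Control rats 1, 2 and 3 were known from earlier work on these data to stand apart and had the lowest array weights in limma, at 0.483, 0.394 and 0.640 against 0.814 to 1.40 on the other arrays. They are shown apart as a description with no test, and no other set of 3 rats was compared with the rest in this way. In 6 of 39 P450 genes (15.4%) all 3 of these rats lay outside the range of the other 27, 4 above and 2 below. The same was true of 8.9% of the 14217 genes with 1 probe set each, 4.57% above and 4.33% below. The 6 genes come from the Cyp2c, Cyp2j, Cyp4b and Cyp4f subfamilies, and no member of families 1 and 3 is among them.

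Cyp2c22, a retinoic acid hydroxylase of hepatocytes, had 39.7, 38.1 and 43.0 in control rats 1, 2 and 3. The 7 other control rats had 7.48 to 17.5, the 1-day group had 7.64 to 19.3 and the 4-day group had 9.24 to 22.2. The 3 rats were all above, and the median of the 3 was 3.51 times the median of the other 27. Cyp2c13, its chromosome 1 neighbour and a steroid hydroxylase higher in males, had 0.239, 0.572 and 0.398 against 0.0536 to 0.164, a ratio of medians of 3.63. Cyp2c12, the gene on the other side of Cyp2c13, had 44.0, 48.8 and 43.8 against 40.4 to 46.9 and was not separated.

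Cyp4f17 had 0.346, 0.306 and 0.219 in the 3 rats against 0.0294 to 0.125 in the other 27, the widest gap of all members at 0.80 on the log2 scale between the nearest values. Its neighbour Cyp4f5 was not separated, with 0.0189, 0.0375 and 0.0145 against 0.0150 to 0.0544. Cyp4f6, a leukotriene hydroxylase, had 3.58, 3.43 and 3.35 against 1.60 to 3.30, so that the nearest values were almost equal (a gap of 0.02). Cyp4f1, next to Cyp4f6 on the chromosome, fell just outside the rule, with 25.6, 20.6 and 25.4 against 14.4 to 21.3 and an overlap of 0.05 on the log2 scale.

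The remaining genes were low in these rats. Cyp2j4, an arachidonic acid epoxygenase, had 1.82, 1.47 and 2.31 in the 3 rats against 2.92 to 5.67 in the other 27, a gap of 0.34, and the median of the 27 was 2.13 times that of the 3. Cyp4b1, which oxidises short fatty acids and is best known from the lung, had 0.554, 0.569 and 0.659 against 0.690 to 1.24, a gap of 0.07. Cyp2j3, next to Cyp2j4 on chromosome 5, was not separated, with 3.70, 4.01 and 5.37 against 2.02 to 6.19. Cyp2d3 fell just outside the rule, with 17.6, 17.6 and 16.9 against 17.0 to 25.2.

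**Figure D3:**
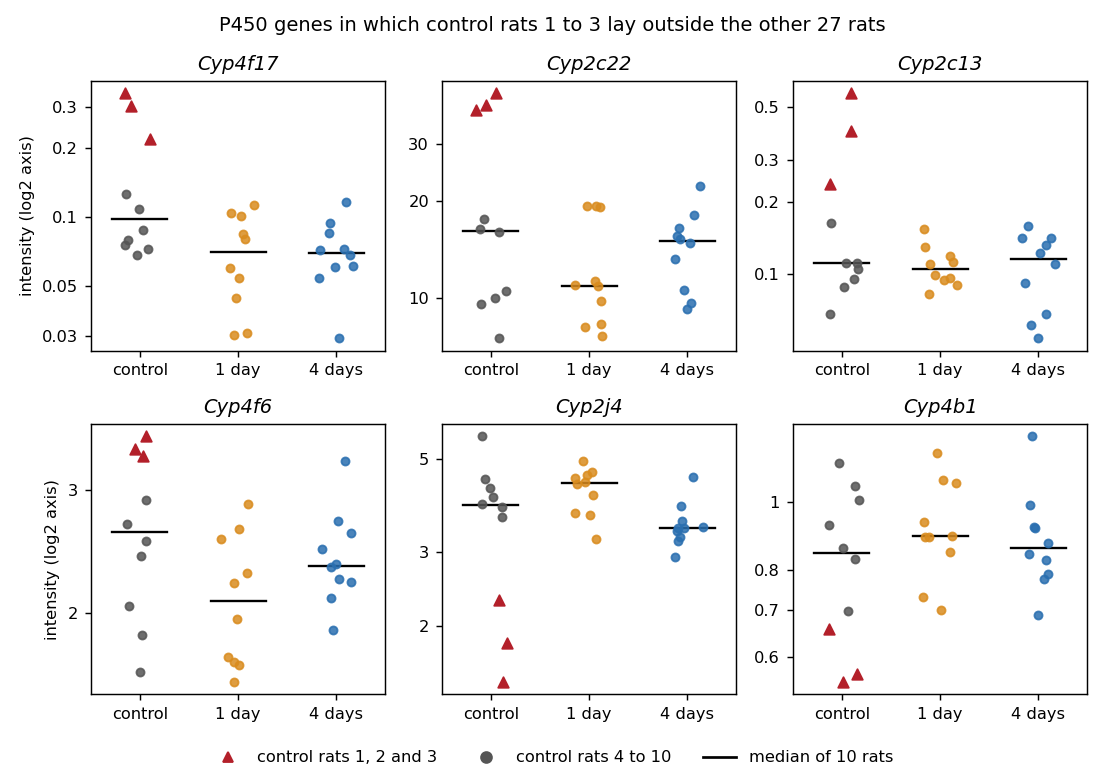
Intensity (log2 axis) of the 6 P450 genes in which control rats 1, 2 and 3 (triangles) all lay outside the range of the other 27 rats, with the median of 10 rats as a line. The 3 rats sit above in Cyp4f17, Cyp2c22, Cyp2c13 and Cyp4f6 and below in Cyp2j4 and Cyp4b1, and the gap is narrow in Cyp4f6 and Cyp4b1.

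Markers of the zones of the liver lobule also set these 3 rats apart from control rats 4 to 10, while the handled groups overlapped the 3 rats. The summed intensity of 8 measured pericentral markers was 51.0, 43.5 and 36.3 in the 3 separated controls, against 29.3 to 35.2 in control rats 4 to 10, and the sum of 9 periportal markers was 134.7, 130.2 and 144.9 against 156.1 to 191.4. In the handled groups these sums spanned 26.3 to 44.1 and 25.8 to 43.3 for the pericentral list and 141.8 to 198.8 and 123.1 to 186.2 for the periportal list. Their part in the P450 values was not tested.

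Promoter sequences of the separated genes are shown for the 3 with the widest gaps that have an entry in the RefSeq table of promoters (GRCr8), where 33 of the 39 members were matched. Each window runs from 250 bases before the annotated start to 50 bases after it, 5′ to 3′ on the minus strand of the gene. Capitals mark matches to the core promoter motif TATAAA, the promoter motif CCAAT, the E-box CACGTG, the nuclear receptor motif AGGTCA, the AhR core motif GCGTG or the sterol element motif TCACNCCAC, searched on both strands and printed as they read on the strand shown, and no marked matches overlap. Cyp2c22 is at chr1:248980718-248981017, Cyp2c13 at chr1:248787139-248787438 and Cyp2j4 at chr5:116322993-116323292.
Cyp2c22: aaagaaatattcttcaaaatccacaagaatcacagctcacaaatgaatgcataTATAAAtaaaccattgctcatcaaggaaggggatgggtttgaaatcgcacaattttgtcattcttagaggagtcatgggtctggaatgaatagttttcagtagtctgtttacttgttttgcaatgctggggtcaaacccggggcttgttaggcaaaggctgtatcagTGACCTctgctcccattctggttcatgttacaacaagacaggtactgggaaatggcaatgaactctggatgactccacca
Cyp2c13: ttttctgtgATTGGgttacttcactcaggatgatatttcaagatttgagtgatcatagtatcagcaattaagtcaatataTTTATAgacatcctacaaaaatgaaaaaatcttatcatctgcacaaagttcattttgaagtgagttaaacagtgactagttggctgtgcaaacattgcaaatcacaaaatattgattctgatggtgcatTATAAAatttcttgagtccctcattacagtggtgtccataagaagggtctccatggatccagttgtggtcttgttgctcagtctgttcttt
Cyp2j4: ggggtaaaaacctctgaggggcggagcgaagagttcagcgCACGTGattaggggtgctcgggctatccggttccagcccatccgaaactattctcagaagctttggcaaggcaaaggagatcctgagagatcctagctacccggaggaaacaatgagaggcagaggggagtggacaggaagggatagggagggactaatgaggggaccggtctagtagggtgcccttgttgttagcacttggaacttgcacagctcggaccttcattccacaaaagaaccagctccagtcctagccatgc

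The 3 windows held different matches. Cyp2c22 had TATAAA at 197 bases and the nuclear receptor motif on the opposite strand, where it reads TGACCT, at 30 bases before the start. Cyp2c13 had TATAAA at 41 bases, the same motif on the opposite strand, reading TTTATA, at 170 bases and the CCAAT motif on that strand, reading as ATTGG, at 241 bases before the start. Cyp2j4 had the E-box CACGTG, which reads alike on both strands, at 210 bases before the start. Over all 33469 promoters in the table, 14.2% held TATAAA, 37.5% CCAAT, 6.42% CACGTG, 16.2% AGGTCA, 29.7% GCGTG and 1.12% TCACNCCAC, and of the 33 P450 promoters 10, 16, 2, 11, 6 and 0 did. Cyp4f6 had 2 matches to GCGTG and 1 to CCAAT, and Cyp4b1 had no match in its window. Cyp4f17 was not matched.

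Leaving these 3 rats out moved the estimates of the separated genes and of others, among them Cyp2a3 and the Cyp3a genes. Against control rats 4 to 10, the log2 change of Cyp2c13 went from -0.51 to 0.055 after 1 day and from -0.59 to -0.02 after 4 days, and that of Cyp2c22 from -0.55 to -0.02 and from -0.30 to 0.23. Cyp2j4 went from 0.35 to -0.012 after 1 day and from 0.08 to -0.28 after 4 days, where 8 of 10 rats were below all 7 remaining control rats (adjusted p = 0.219 in limma). Cyp4b1 went from 0.18 and 0.12 to -0.015 and -0.07, and Cyp4f6 from -0.30 and -0.10 to -0.12 and 0.083. In this fit Cyp1a2 after 4 days was the member called, with 257 of all probe sets (0.828%), and 0 members were called after 1 day, with 102 probe sets (0.329%).

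**Figure D4:**
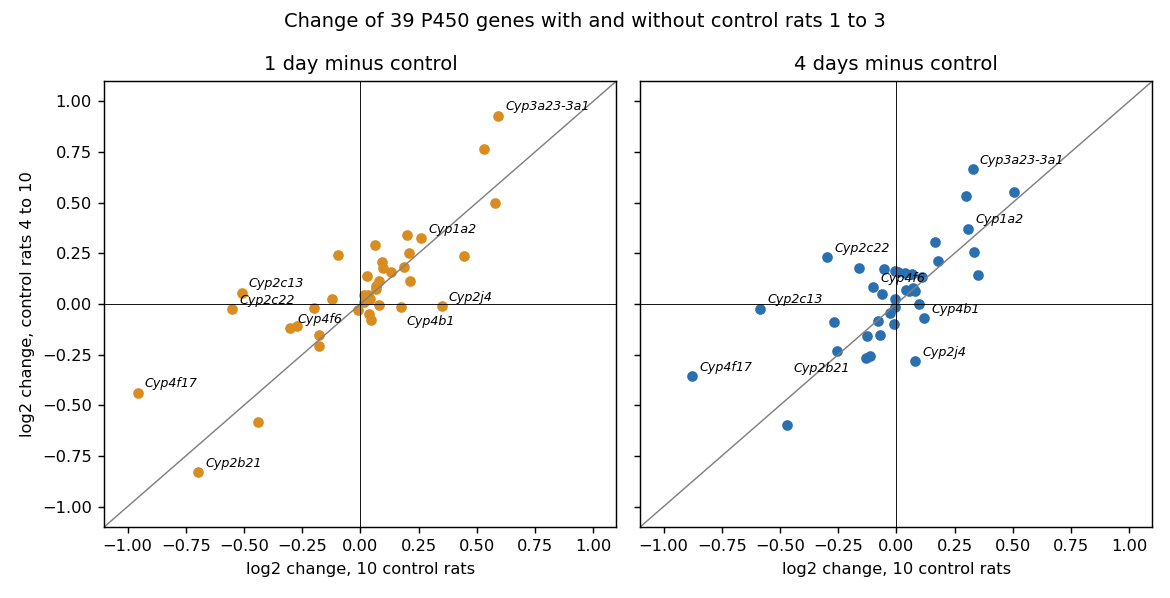
Log2 change of the 39 P450 genes after 1 day (left) and 4 days (right) of handling, with all 10 control rats (horizontal axis) and with control rats 4 to 10 (vertical axis). Points on the diagonal do not move, Cyp2c13, Cyp2c22, Cyp2j4 and Cyp4b1 move to near 0 after 1 day, and Cyp3a23-3a1 moves up to 0.93.

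The regulators and partners of the P450 enzymes were not called either. Of 23 measured receptors and partners, 0 were called in either comparison. Over all probe sets 0.0902% were called after 1 day and 0.657% after 4 days, so a count of 0 does not set lists this short apart. After 1 day 0 of the 23 had an unadjusted p under 0.05 in limma and after 4 days 5 did, against 9.33% and 11.3% of all probe sets. Hnf4a, the nuclear receptor that keeps P450 genes on in hepatocytes, came nearest, with a log2 change of 0.20 ± 0.07 (SE) after 4 days, 10 of 10 rats above the control median and an adjusted p of 0.235 in limma. Nr3c1, the glucocorticoid receptor, had -0.18 ± 0.07 after 4 days (adjusted p = 0.295). Cebpa was also lower after 4 days, with -0.30 ± 0.13 (adjusted p = 0.355). Without control rats 1 to 3 the log2 change after 4 days was 0.14 for Hnf4a (adjusted p = 0.484 in limma) and -0.22 for Nr3c1 (0.206). For Cebpa it was -0.17 (0.689). Of 12 measured genes of electron supply and heme synthesis, 0 were called. Pgrmc2 had the smallest p of this list after 1 day, with a log2 change of 0.24 ± 0.08 (SE) and an adjusted p of 0.316 in limma. Without control rats 1 to 3 its log2 change was 0.33 (adjusted p = 0.105). Alas1, the first enzyme of heme synthesis, had 5.36 to 10.1 in control rats (median 6.98), 6.13 to 15.7 after 1 day (8.81) and 5.44 to 13.6 after 4 days (8.47), and its log2 change was 0.47 ± 0.18 after 1 day (adjusted p = 0.41). Of 5 measured AhR targets outside the P450 family, 0 were called, with Nqo1, a quinone reductase, at -0.31 ± 0.20 after 1 day (adjusted p = 0.673) and -0.16 ± 0.20 after 4 days (0.825). Nqo1 had 7.36, 7.95 and 5.70 in control rats 1, 2 and 3, above the 1.78 to 5.67 of the other 27, and without them its log2 changes were -0.031 and 0.12.

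Of 12 measured CAR and PXR targets outside the P450 family, 0 were called after 1 day, where 0.0902% of all probe sets were. After 4 days 3 fell, as did 0.37% of all probe sets. At an unadjusted p under 0.05, 6 passed after 1 day and 4 after 4 days, against 9.33% and 11.3% of all probe sets. The median log2 change of the list was 0.09 and 0.04, against -0.003 and 0.002 over all probe sets. Aldh1a1 was higher after 1 day, with a log2 change of 0.44 ± 0.15 (SE) and an adjusted p of 0.345 in limma. After 4 days it had 0.03 ± 0.15 (adjusted p = 0.967). Ephx1, the microsomal hydrolase that opens epoxides made by P450 enzymes, had 6.44 to 21.1 in control rats (median 12.4), 4.49 to 9.52 after 1 day (8.15) and 4.34 to 9.12 after 4 days (6.78). All 20 handled rats were below the control median, and the log2 change was -0.68 ± 0.18 (SE) after 1 day (adjusted p = 0.195 in limma) and -0.86 ± 0.18 after 4 days (adjusted p = 0.0412). Gstm1, which conjugates such products to glutathione, had 13.5 to 21.8, 9.85 to 16.5 and 8.85 to 16.8. Its log2 change after 4 days was -0.53 ± 0.12, with an adjusted p of 0.0417 in limma. Abcc2, which exports conjugates into bile, had 6.34 to 14.3, 6.54 to 10.4 and 6.63 to 9.38, and a log2 change of -0.45 ± 0.11 after 4 days, with an adjusted p of 0.0847.

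These 3 calls changed with the controls used and with the fit, while the log2 changes after 4 days kept their sign. Ephx1 was high in control rats 1, 2 and 3, at 15.9, 15.3 and 21.1, while 6.44 to 13.7 was the range of control rats 4 to 10, and without these rats the log2 change after 4 days was -0.63 with an adjusted p of 0.12 in limma. Without them Gstm1 had a log2 change of -0.46 after 4 days with an adjusted p of 0.112, and Abcc2 had -0.57 with 0.0128 and passed after 1 day as well (log2 change -0.44, adjusted p = 0.0752). A measure of RNA quality, taken from Gapdh, also moved with the groups. The log2 ratio of signals from the 3′ and 5′ ends of Gapdh, which climbs as RNA breaks down, was 0.55 to 0.70 without handling, 0.66 to 0.83 in the 1-day group, where 7 of 10 rats exceeded every control rat, and 0.70 to 0.96 in the 4-day group, where 10 of 10 did. The same kind of ratio for beta-actin overlapped between all groups. It spanned 2.20 to 3.21 in control rats, where rat 10 had the highest value and rat 2 the next, 2.69. Handled rats ranged from 2.61 up to 3.19 (1-day group) and from 2.73 up to 3.83 (4-day group). The paper rated the RNA of every sample as good. As the Gapdh ratio separated the 4-day group from the control group, a fit with it cannot tell RNA quality from handling. With the Gapdh ratio as a covariate the log2 changes after 4 days were about as large and the adjusted p-values higher. They were -0.88 (0.304) for Ephx1, -0.56 (0.317) for Gstm1 and -0.39 (0.501) for Abcc2, and 0 P450 genes were called.

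**Figure D5:**
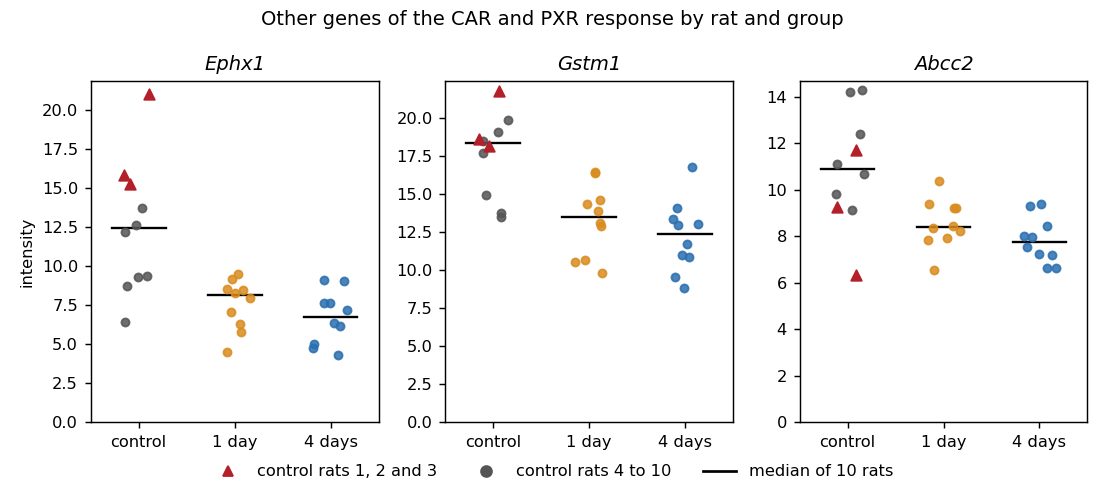
Intensity of Ephx1, Gstm1 and Abcc2 in each of 30 rats by group, with control rats 1, 2 and 3 as triangles and the median of 10 rats as a line. All handled rats lie below the control median in each gene, and the control and handled ranges overlap.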

How the data were processed

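Liver RNA of 30 rats (10 per group) was measured on 1-colour arrays, 1 per rat. The authors deposited 1 linear intensity per probe set and array, scaled to a mean of 1 per array (from the values). The authors used GCOS and Rosetta Resolver, and how the intensities were summarised is not given in the sources used here. The 57 Affymetrix control features among 31099 probe sets were not used. Genes were named from GEO's platform annotation: 20826 probe sets carry 1 symbol, 436 several and 9780 none, and 39 of 39 members matched RefSeq symbols. Log2 intensities without an offset were fitted in limma 3.58.1 (R 4.3.3; lmFit, eBayes, 3 groups in 1 fit, two-sided), adjusted over 31042 probe sets and called at an adjusted p under 0.1. Pairs of genes were correlated on deviations from group means, with two-sided permutation tests of 100000 resamples (scipy 1.17.1, Python 3.11.15). The pipeline was tested on simulated data.

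The members and lists were chosen with earlier results of these data known, and the paper had been read. Members with values in the text are textbook genes, the 4 smallest p per comparison with control, the 6 widest gaps of control rats 1 to 3 and the 5 largest within-group SDs. Of the lists of regulators and targets, values are given for some of the genes with the smallest p, not for all of them. Members of a list other than these are given as counts or ranges, or as neighbours and borderline cases chosen after their values were seen. The 12 alternatives cover the offset, normalization, dim probe sets, array weights, replicate numbers, groups fitted, RNA quality, control rats 1 to 3, single rats, the t-test, the threshold and the choice of probe set. Replicate numbers were not taken to pair rats of different groups. The number of arrays limits the precision.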

Additional observations from a re-analysis of the deposited data

How the results depend on the processing

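The count of P450 genes called stayed at 0 in all 3 comparisons under every alternative run but these: after 4 days it was 1 once the dimmest 40% had been dropped and 1 with control rats 1 to 3 left out, Cyp1a2 in both cases. Fits that each lacked 1 of the 30 rats gave 0 to 0 members in each comparison, and 1 to 44, 86 to 307 and 0 to 0 of all probe sets. The number of probe sets called after 1 day and after 4 days, 28 and 204 in the reported fit, was 45 and 346 with an offset of 0.05, 113 and 493 without the dimmest 40%, 2 and 85 with the replicate block, 1 and 27 with only the 2 groups compared, 0 and 5 with the Gapdh covariate, 102 and 257 without control rats 1 to 3, 55 and 152 by the methods' t-test and 1 and 70 at an adjusted p under 0.05. With array weights they were 21 and 137. Rats with the same replicate number did not deviate together (r = -0.04 to 0.12, over 0.1 in 1 of 30 pairs), and the replicate block called 0 P450 genes in each comparison. Of 358 values of 46 gene changes under the alternatives other than single rats left out, 325 kept their direction and side of the threshold, 21 changed direction, 9 lost and 3 gained a call. Without control rats 1 to 3, the direction after 1 day turned for Cyp2a3 (0.24), Cyp2c13 (0.055), Cyp2j4 (-0.012), Cyp4b1 (-0.015) and Cyp4f5 (-0.081), and after 4 days for Cyp2a3 (0.18), Cyp2c12 (0.023), Cyp2c22 (0.23), Cyp2j10 (0.17), Cyp2j4 (-0.28), Cyp4b1 (-0.07) and Cyp4f6 (0.083). With the Gapdh covariate it turned after 1 day for Cyp1a1 (-0.16), Cyp2a3 (0.25) and Cyp2j10 (-0.02), and after 4 days for Cyp2a3 (0.25) and Cyp2b21 (0.038). With array weights it turned after 1 day for Cyp2a3 (0.087), and after 4 days for Cyp2c12 (0.013), Cyp2j10 (0.038) and Cyp2j4 (-0.097). None of these values passed the test. The correlation of Cyp1a2 with Cyp2e1 turned to -0.11 without the 2 farthest rats. Of the called targets after 4 days, Ephx1 and Gstm1 kept their calls whichever rat was left out and lost them with only the 2 groups compared (log2 changes of -0.86 and -0.53 as before, adjusted p = 0.109 and 0.106 in limma), while Abcc2 lost its call in 12 of 30 such fits (adjusted p up to 0.142), with the replicate block (0.133) and with 2 groups (0.221), its log2 change being -0.45 in both of the last fits. The causes were not tested. Signals near the lowest values of the table limit what can be said of Cyp1a1, Cyp2a3, Cyp2b21, Cyp2j10 and Cyp4f5.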
